A study of Mus musculus with 4 samples.

Results

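The interferon-induced GTPase genes described here are 8 genes chosen by name: 5 guanylate-binding proteins (Gbp2, Gbp3, Gbp4, Gbp5 and Gbp7) and 3 immunity-related GTPases (Iigp1, Igtp and Irgm1), out of 41862 gene columns in each count table. They were followed over every cell class in 4 single-cell RNA libraries of the mouse central nervous system. The groups were EAE TRAIL+, EAE TRAIL-, naive TRAIL+ and naive TRAIL-, with 1 library each. All came from C57BL6 mice in which the tamoxifen-activated Cre of Aldh1l1CreERT2 switches on TdTomato in cells that use the astrocyte promoter Aldh1l1, and all cells had been sorted as TdTomato+ and positive for surface LAMP (LAMP1 in the protocol), a lysosomal membrane protein. EAE mice had been given MOG peptide in complete Freund's adjuvant and were taken at peak disease (experimental autoimmune encephalomyelitis, a model of multiple sclerosis), and naive mice had not. The series lists 3 mice per disease state. The sources used here do not say whether their cells were pooled, and give neither age nor sex. TRAIL is a death ligand, and its surface staining split each preparation into TRAIL+ and TRAIL- cells. With 1 library per group there was no replicate check and no test between groups, so every interval below is a 95% interval that covers counting error only.

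Guanylate-binding proteins and immunity-related GTPases are among the most strongly induced products of interferon signalling in mouse cells. Interferon gamma acts through Jak kinases and GAS elements in promoters, and type I interferons act through interferon-stimulated response elements (ISRE), which IRF1 also recognises. The GTPases coat vacuoles and membranes around intracellular microbes, with the help of the autophagy conjugation proteins that load them there. In inflamed brain their RNA is widely used as a readout of interferon exposure, in resident as well as infiltrating cells.

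The promoters are shown first because the 8 genes moved together in several cell classes. Windows from 250 bases before to 50 bases after the RefSeq start site (GRCm38.p6) were held for 6 of the 8 genes, and Gbp4 and Iigp1 are named only. All 6 genes had a window with an ISRE match (GAAA, any 2 bases, GAAA, on either strand), a motif found in 3.44% of 32851 windows of the same length. A GAS match (TTCNNNGAA, which reads alike on both strands) was found in 3 of the 6, Gbp5, Gbp7 and Igtp, against 8.30% of all windows, and 0.454% of all windows held both motifs. A second Gbp3 window held neither. The last 180 bases before the start site are printed on the gene's own strand, with both motifs in capitals. They lie at chr3:142620483-142620662 for Gbp2, chr3:142559864-142560043 for Gbp3, chr3:142496754-142496933 for Gbp5 and chr3:142530156-142530335 for Gbp7, all on the plus strand. The Igtp stretch is chr11:58199376-58199555 on the plus strand and that of Irgm1 chr11:48871421-48871600 on the minus strand.
Gbp2: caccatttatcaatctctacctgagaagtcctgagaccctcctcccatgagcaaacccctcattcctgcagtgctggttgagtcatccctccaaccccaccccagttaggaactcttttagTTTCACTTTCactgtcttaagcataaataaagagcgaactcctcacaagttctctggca
Gbp3: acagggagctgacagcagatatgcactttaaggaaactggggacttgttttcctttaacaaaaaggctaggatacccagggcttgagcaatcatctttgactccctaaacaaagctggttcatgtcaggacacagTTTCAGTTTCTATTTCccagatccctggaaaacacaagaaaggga
Gbp5: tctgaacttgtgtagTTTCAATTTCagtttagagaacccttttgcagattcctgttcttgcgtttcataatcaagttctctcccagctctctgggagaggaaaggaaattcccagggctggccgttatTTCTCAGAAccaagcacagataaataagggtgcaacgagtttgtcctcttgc
Gbp7: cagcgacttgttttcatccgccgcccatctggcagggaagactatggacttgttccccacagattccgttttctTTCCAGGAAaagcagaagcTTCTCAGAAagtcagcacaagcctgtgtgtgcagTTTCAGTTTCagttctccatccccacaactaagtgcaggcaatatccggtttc
Igtp: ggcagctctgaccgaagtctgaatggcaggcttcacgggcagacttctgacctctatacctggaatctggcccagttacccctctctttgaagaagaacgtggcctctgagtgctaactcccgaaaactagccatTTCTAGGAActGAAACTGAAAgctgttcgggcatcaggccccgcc
Irgm1: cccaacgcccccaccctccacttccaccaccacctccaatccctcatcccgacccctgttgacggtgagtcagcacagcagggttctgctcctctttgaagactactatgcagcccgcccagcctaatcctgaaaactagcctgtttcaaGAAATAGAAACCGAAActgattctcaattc
Counted from the start site, the ISRE match began at base -59 in Gbp2, -53 in Gbp7, -34 in Igtp and -165 in Gbp5. Gbp3 and Irgm1 each held a pair of overlapping matches, beginning at -45 and -39 in Gbp3 and at -30 and -24 in Irgm1. The ISRE match thus lay within the last 59 bases before the start site in 5 of the 6 genes. In Igtp a GAS match at -45 stood just upstream of the ISRE match. The GAS matches of Gbp7 began at -106 and -87, and those of Gbp5 at -52 and at -245, the last outside the printed stretch. These are letter matches and not measured binding.

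In GENCODE release 21 (GRCm38), 4 of the guanylate-binding protein genes lie close together on chromosome 3 on the plus strand: Gbp5 at 142493978 to 142522344, Gbp7 at 142530342 to 142550149, Gbp3 at 142560026 to 142573209 and Gbp2 at 142620602 to 142638008. Gbp2b, which is not among the 8, lies between Gbp3 and Gbp2 on the same strand. Gbp4 lies on the minus strand of chromosome 5 at 105115767 to 105139586 and overlaps Gbp8 and Gbp9 on its own strand, so reads of these genes could have been split and Gbp4 counts are uncertain. Igtp on chromosome 11, at 58199556 to 58207591, overlaps Irgm2 on the same strand and is uncertain in the same way, as is Gbp7, which overlaps Gm43802 on its own strand. Irgm1 is on the same chromosome at 48861968 to 48871683, and Iigp1 is on chromosome 18. All 8 are protein-coding.

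The tables held 2856696 to 3984975 UMIs (unique molecular identifiers, each marking 1 captured RNA molecule) per library, and 7899 of 12987 barcodes passed the filters of at least 500 UMIs and at most 20% mitochondrial UMIs. Median depth was 1907.5 UMIs per barcode in EAE TRAIL+, 1191 in EAE TRAIL-, 1505 in naive TRAIL+ and 949 in naive TRAIL-. Pairs of libraries shared 23 to 40 barcode sequences among those kept. The labelled cell type was not borne out: astrocyte-like barcodes were 0.441% of EAE TRAIL+, 0.188% of EAE TRAIL-, 6.55% of naive TRAIL+ and 1.55% of naive TRAIL-, and Aldh1l1 stood at 11.8 CPM (counts per 1000000 UMIs of a sum) or less in every library. Microglia-like barcodes made up 82.5% of EAE TRAIL+ and 81.6% of naive TRAIL+, but 16.0% of EAE TRAIL- and 13.5% of naive TRAIL-, where endothelial-like and pericyte-like barcodes were the larger classes. Monocyte-like barcodes, in a cluster with Chil3, Plac8 and Arg1 among its leading genes, numbered 156 in EAE TRAIL+ and 262 in EAE TRAIL-. There were 16 in naive TRAIL+ and 15 in naive TRAIL-. Classes were clustered without the interferon and MHC genes.

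**Figure D1:**
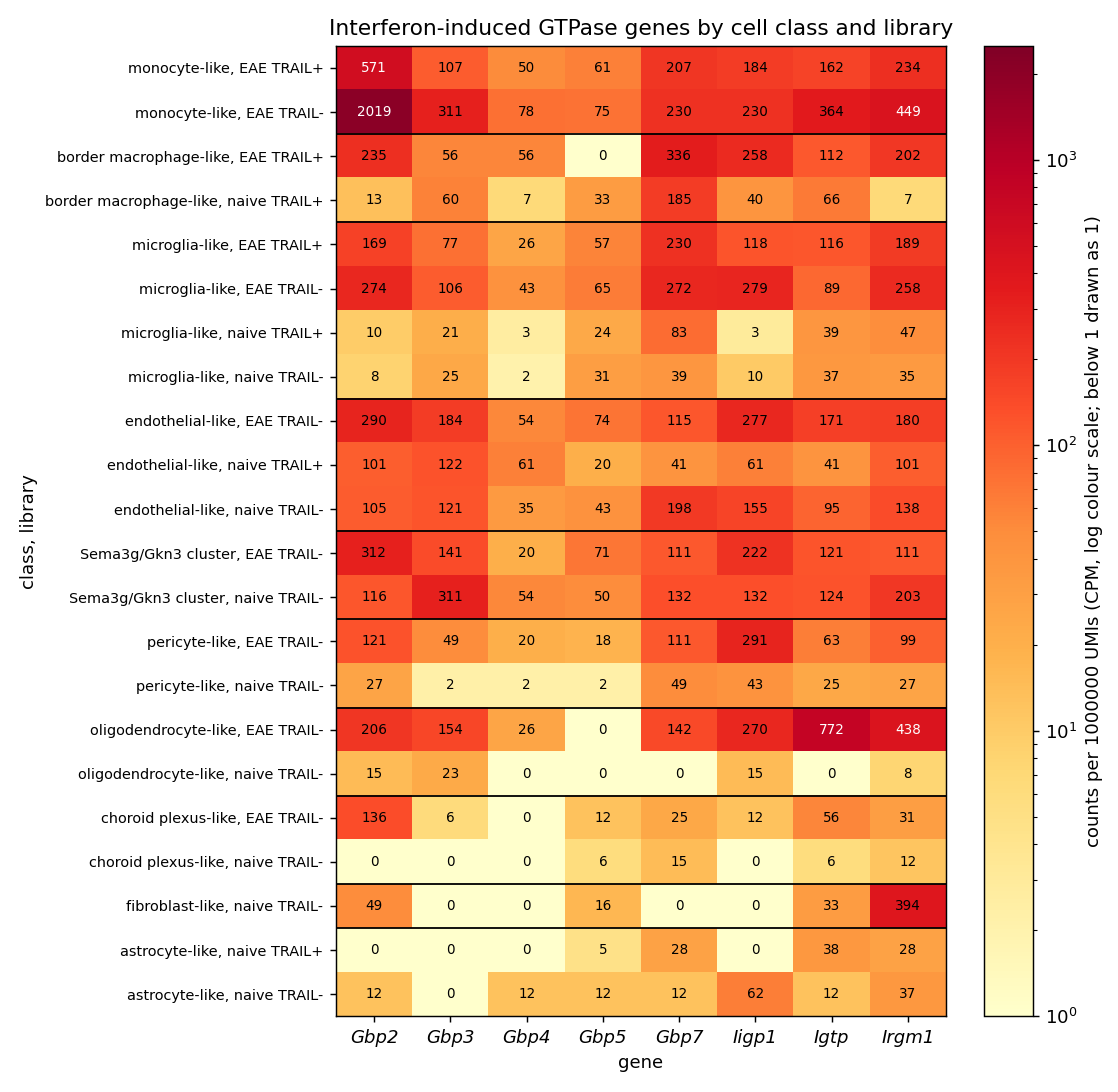
Level of each gene (columns) in counts per 1000000 UMIs, summed over the barcodes of each cell class and library (rows, at least 20 barcodes and 30000 UMIs), on a log colour scale. Monocyte-like barcodes of EAE TRAIL- held the highest Gbp2 level, 2019 CPM, and microglia-like barcodes of both naive libraries held Gbp2, Gbp4 and Iigp1 at 10.3 CPM or less.

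In microglia-like barcodes all 8 genes were at least 2-fold higher in EAE, in both sorted fractions. Summed over the 8, the level was 981 CPM (946 to 1017) in EAE TRAIL+ against 229 CPM (213 to 247) in naive TRAIL+, and 1386 CPM (1285 to 1492) in EAE TRAIL- against 187 CPM (150 to 229) in naive TRAIL-. Genes were compared where their mean reached 10 CPM, and of all of these 4.04% were higher by 2-fold or more and 0.886% lower by as much in TRAIL+, and 12.9% higher and 12.7% lower in TRAIL-. Gbp2, Gbp4 and Iigp1 in TRAIL+, and Gbp2 and Gbp4 in TRAIL-, had naive levels under 10 CPM and passed that filter through EAE alone, so their place among the 8 was fixed by it. Of the genes with at least 10 CPM in both groups, 5 of 5 in TRAIL+ and 6 of 6 in TRAIL- were at least 2-fold higher. Their median log2 ratio was 1.57 in TRAIL+ and 2.45 in TRAIL-. Over all genes compared, which had to pass only the looser filter on the mean, it was 0.04 and -0.06.

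Among the guanylate-binding proteins, Gbp2, which gathers on pathogen vacuoles, stood at 169 CPM (154 to 184) in EAE TRAIL+ microglia-like barcodes, against 9.63 CPM (6.45 to 13.8) in naive TRAIL+. In the TRAIL- pair it stood at 274 CPM (230 to 323) in EAE, against 8.21 CPM (2.24 to 21) in naive. The ratios of EAE over naive were 17.5 (12 to 26.4) and 33.3 (12.7 to 124), the second resting on 4 naive UMIs. Gbp4 was sparse, with 26.1 CPM in EAE TRAIL+ against 2.66 CPM in naive TRAIL+, a ratio of 9.84 (4.76 to 23.6), and with 22 UMIs in EAE TRAIL- against 1 in naive TRAIL-. Gbp3 had a ratio of 3.67 (2.77 to 4.93) in TRAIL+, from 76.8 CPM in EAE and 20.9 CPM in naive, and of 4.32 (2.28 to 8.86) in TRAIL-.

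Gbp5 and Gbp7 had lower ratios in TRAIL+ than the other guanylate-binding proteins. Gbp5, which promotes assembly of the NLRP3 inflammasome, stood at 56.9 CPM in EAE TRAIL+ against 23.9 CPM in naive TRAIL+, a ratio of 2.38 (1.80 to 3.17). It had the lowest ratio of the 8 in both fractions, 2.11 (1.11 to 4.18) in TRAIL-. Gbp7, linked to the phagocyte oxidase in macrophages, stood at 230 CPM (213 to 248) in EAE TRAIL+ against 83.3 CPM (73.4 to 94.3) in naive TRAIL+. Its ratio was 2.76 (2.39 to 3.20) in TRAIL+ and 6.97 (4.29 to 11.9) in TRAIL-, where the 19 naive UMIs came from 7 of 306 barcodes.

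Of the immunity-related GTPases, Iigp1 is an effector that breaks open parasite vacuoles, while Igtp and Irgm1 are regulators that sit on the cell's own membranes and hold effectors inactive there. Iigp1 had the highest ratio in TRAIL+, 39.6 (20.6 to 87.3), with EAE TRAIL+ at 118 CPM and naive TRAIL+ at 2.99 CPM. In TRAIL- it stood at 279 CPM against 10.3 CPM in naive, a ratio of 27.2 (11.4 to 85.2), and 23 of the 142 UMIs in EAE lay in 1 barcode. The size of the Iigp1 ratio moved with the processing. Over the alternatives run its log2 ratio lay between 1.52 and 5.63 in TRAIL+, where 5.31 is the reported value. In TRAIL- it lay between 1.84 and 5.36, where 4.77 is the reported value. As reported, both regulators had lower ratios than Iigp1. Irgm1 stood at 189 CPM in EAE TRAIL+ against 47.2 CPM in naive TRAIL+, a ratio of 4.0 (3.32 to 4.84), and had a ratio of 7.39 (4.44 to 13.1) in TRAIL-. Igtp had ratios of 2.98 (2.41 to 3.70) in TRAIL+ and 2.40 (1.36 to 4.40) in TRAIL-.

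A larger share of barcodes held the genes in EAE. At a fixed depth this share also rises with the level, so it cannot separate more barcodes with the RNA from more RNA per barcode. After each barcode had been thinned to 500 UMIs, 28.2% (25.9 to 30.6) of EAE TRAIL+ and 36.3% (30.4 to 42.5) of EAE TRAIL- microglia-like barcodes held at least 1 of the 8 genes, against 9.07% (7.79 to 10.5) in naive TRAIL+ and 8.17% (5.36 to 11.8) in naive TRAIL-. At least 2 of the 8 were held by 7.55% of EAE TRAIL+ and 9.38% of EAE TRAIL- barcodes, against 0.385% of naive TRAIL+ and 0.327% of naive TRAIL- barcodes. The unthinned shares with at least 1 were 53.8% and 62.9% in EAE TRAIL+ and EAE TRAIL-, and 24.4% and 16.3% in naive TRAIL+ and naive TRAIL-. Median depth of microglia-like barcodes was 1922, 1935.5, 1559 and 1542.5 UMIs in EAE TRAIL+, EAE TRAIL-, naive TRAIL+ and naive TRAIL-. As a low reference, 2.20% of choroid plexus-like barcodes of naive TRAIL-, with a median depth of 3190 UMIs, held at least 1 of the 8 after thinning.

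**Figure D2:**
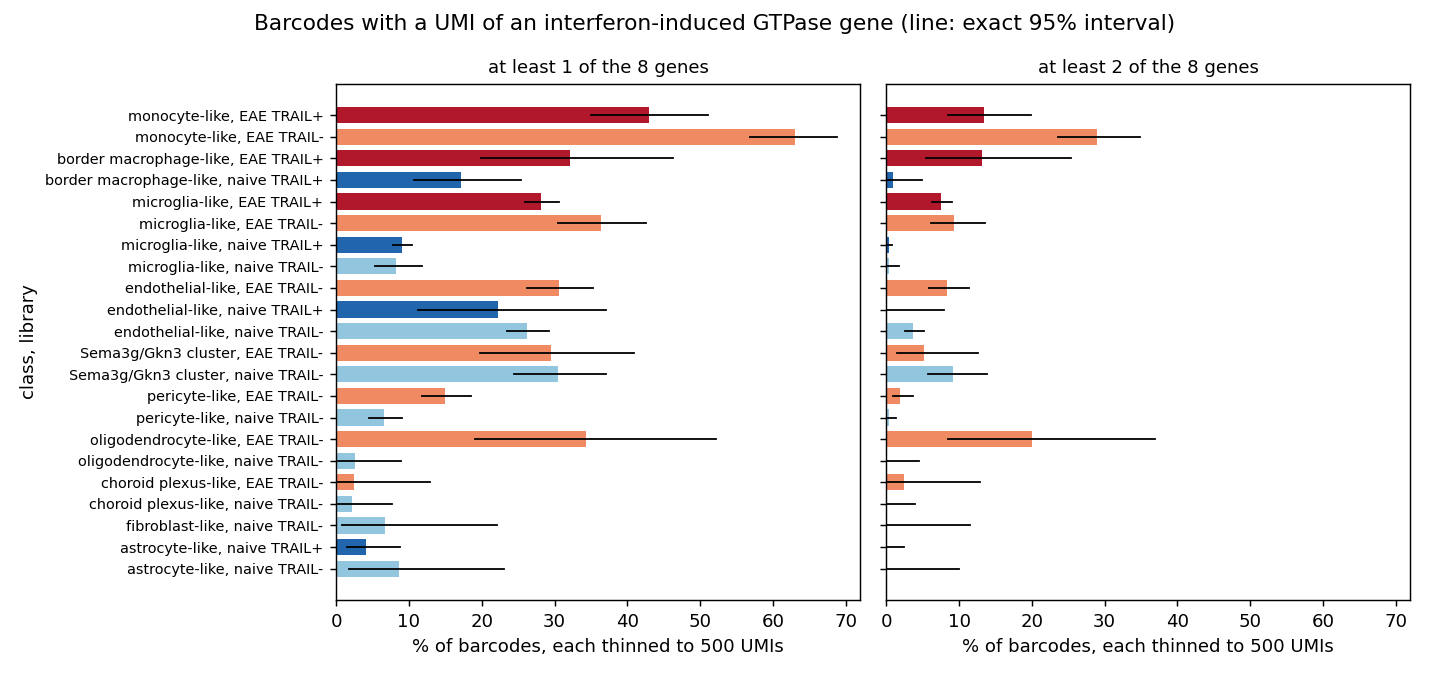
Percent of barcodes, each thinned to 500 UMIs, with a UMI of at least 1 (left) or at least 2 (right) of the 8 genes, by class and library, with exact binomial 95% intervals as lines. EAE rows of the monocyte-like, microglia-like and oligodendrocyte-like classes lie between 28.2% and 63.0% on the left, and endothelial-like rows, EAE and naive, between 22.2% and 30.6%.

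The microglia-like class joined a cluster led by Ccl12, Ccl3 and Ccl4 and a cluster led by Gpr183, Rhoh and Gpr34. The first held 939 of the 1496 barcodes in EAE TRAIL+ against 841 of 1819 in naive TRAIL+. Taken alone, the first cluster had 8 of 8 genes at least 2-fold higher in both fractions, and the second had 6 of 8 in both. When the interferon and MHC genes were kept for clustering, a cluster led by C4b and Hcar2 formed outside the class, with 713 EAE TRAIL+ and 199 EAE TRAIL- barcodes against 24 naive TRAIL+ and 3 naive TRAIL-. The microglia list matched it best but had 2 genes among its 100 leading genes, too few for a name. All 16 microglia markers were detected there and made up 3.33% of its UMIs. In the clusters then named microglia-like they made up 3.92% and 4.15%. The microglia-like barcodes left then had 2 of 8 genes at least 2-fold higher in TRAIL+ and 5 of 8 in TRAIL-. Monocyte markers, summed over 12 genes, stood at 589 CPM in EAE TRAIL+ against 419 CPM in naive TRAIL+ microglia-like barcodes and at 693 CPM in EAE TRAIL- against 281 CPM in naive TRAIL-. In EAE TRAIL- this was 3.27% of their level in monocyte-like barcodes, and their part in the difference between EAE and naive was not tested.

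**Figure D3:**
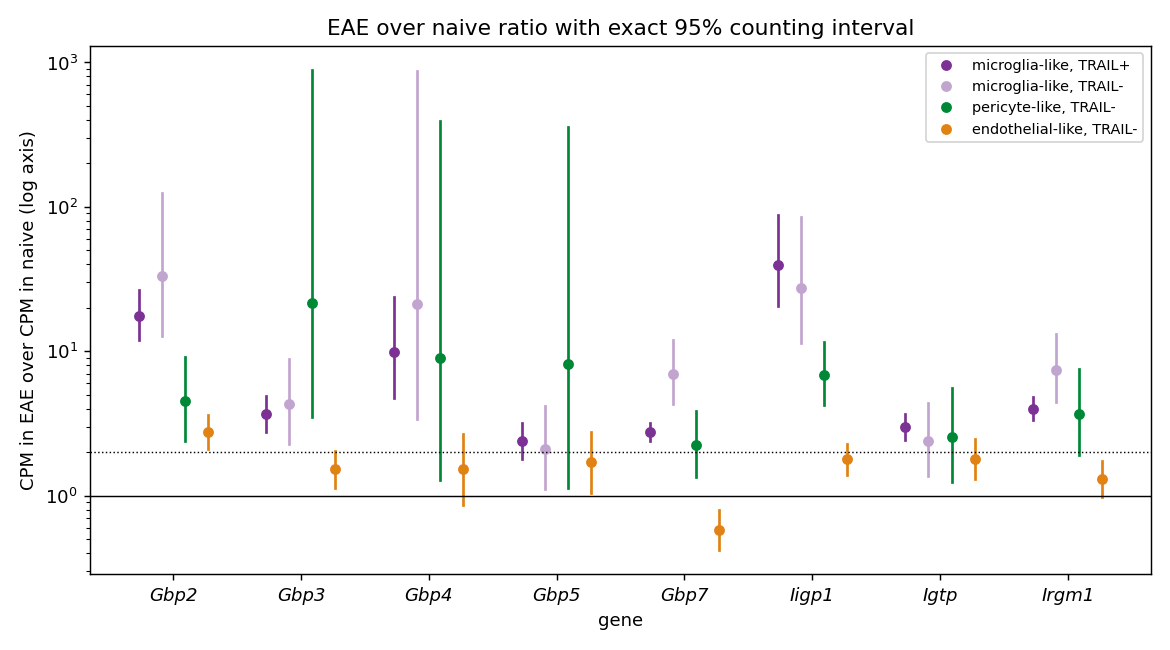
Ratio of EAE to naive CPM for each gene (points, log axis) with its exact 95% counting interval (lines) in microglia-like barcodes of both fractions and in pericyte-like and endothelial-like barcodes of the TRAIL- fraction. The solid line marks equal levels and the dotted line a 2-fold ratio. Endothelial-like ratios lie lowest for all 8 genes and Gbp7 alone lies under 1.

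Vascular classes could be compared in the TRAIL- fraction only. Pericyte-like barcodes (469 in EAE TRAIL- and 521 in naive TRAIL-) held 773 CPM (697 to 854) of the 8 genes in EAE against 178 CPM (141 to 222) in naive. All 8 genes were at least 2-fold higher there in EAE, where 10.1% of all genes compared were higher and 10.3% lower by as much. Gbp3, Gbp4 and Gbp5 had naive levels under 10 CPM and passed the filter through EAE alone, and the other 5 of 5 had at least 10 CPM in both groups. Iigp1 stood at 291 CPM (246 to 343) in EAE against 42.7 CPM (25.7 to 66.8) in naive, a ratio of 6.82 (4.21 to 11.7). Gbp2 stood at 121 CPM against 27.0 CPM in naive, a ratio of 4.50 (2.39 to 9.18), and Irgm1 at 99.1 CPM against 27.0 CPM, a ratio of 3.67 (1.92 to 7.58). Gbp7 and Igtp had ratios of 2.25 (1.35 to 3.87) and 2.53 (1.24 to 5.59). Gbp3 rested on 24 UMIs in EAE against 1 in naive, Gbp4 on 10 against 1 and Gbp5 on 9 against 1, with 5 of the 10 Gbp4 UMIs in 1 barcode.

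The pericyte-like level was held by few barcodes: 14.9% (11.8 to 18.5) in EAE TRAIL- and 6.53% (4.56 to 9.0) in naive TRAIL- held at least 1 of the 8 after thinning, and a single barcode gave 24 of the 144 Iigp1 UMIs in EAE. With the mean of each barcode's own CPM in place of summed counts, 5 of 8 genes were at least 2-fold higher. Monocyte markers summed to 318 CPM in EAE against 92.2 CPM in naive pericyte-like barcodes, the EAE value being 1.5% of their level in monocyte-like barcodes of EAE TRAIL-. Their part in the difference was not tested.

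Endothelial-like barcodes (421 in EAE TRAIL- and 941 in naive TRAIL-) held the genes at a high level without disease. The 8 genes summed to 1343 CPM (1240 to 1453) in EAE TRAIL- and already 891 CPM (829 to 955) in naive TRAIL-, where endothelial-like barcodes gave 60.1% of the library's UMIs of the 8 genes and held 31.9% of all its UMIs. Gbp2 was the 1 gene of the 8 that was at least 2-fold higher in EAE, with 9.20% of all genes compared above that ratio, and none of the 8 was at least 2-fold lower, with 9.41% of all genes there. Gbp2 stood at 290 CPM (243 to 343) in EAE against 105 CPM (84.7 to 129) in naive, a ratio of 2.76 (2.10 to 3.64), and 27.6% of its EAE UMIs lay in 1 barcode. Iigp1, Igtp, Gbp5, Gbp4, Gbp3 and Irgm1 had ratios between 1.30 and 1.80. Gbp7 went the other way, with 115 CPM (85.9 to 150) in EAE against 198 CPM (169 to 229) in naive, a ratio of 0.580 (0.418 to 0.794). Its log2 ratio lay between -0.93 and -0.67 over the alternatives run.

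The share of endothelial-like barcodes with at least 1 of the 8 genes was 30.6% (26.3 to 35.3) in EAE and 26.2% (23.5 to 29.2) in naive after thinning, and the intervals overlapped. The share with at least 2 was 8.31% (5.86 to 11.4) in EAE and 3.72% (2.60 to 5.14) in naive, and these did not. Barcodes of 1 library are not replicates, so neither overlap nor its lack tests EAE against naive. With barcodes of at least 1000 UMIs, 3 of 8 genes were at least 2-fold higher. The monocyte marker sum was 2230 CPM in EAE against 1630 CPM in naive endothelial-like barcodes, and the EAE value was 10.5% of their level in monocyte-like barcodes. Their part in the Gbp2 difference was not tested. A cluster led by Sema3g, Gkn3 and Vegfc, with 8 endothelial markers among its 100 leading genes but none among its 10, stayed unnamed because another list had a gene there (78 barcodes in EAE TRAIL- and 217 in naive TRAIL-). Its sum of the 8 genes was 1109 CPM (911 to 1336) in EAE and 1122 CPM (992 to 1264) in naive, with overlapping intervals. Gbp2 stood at 312 CPM (212 to 444) in EAE against 116 CPM (77.0 to 168) in naive, and Gbp3 stood at 141 CPM (77.1 to 237) in EAE against 311 CPM (244 to 389) in naive. Monocyte markers summed there to 1895 CPM in EAE against 1097 CPM in naive, and their part in these differences was not tested.

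Monocyte-like barcodes held the highest summed level, 3756 CPM (3612 to 3905) in EAE TRAIL-, with 1578 CPM (1462 to 1700) in EAE TRAIL+. In EAE TRAIL- they were 16.4% of barcodes, held 26.7% of all UMIs and gave 54.8% of the UMIs of the 8 genes, against 15.1% from microglia-like, 13.3% from endothelial-like and 8.17% from pericyte-like barcodes. The microglia-like, endothelial-like and pericyte-like barcodes held 19.9%, 18.1% and 19.4% of all UMIs of that library, in that order. Within EAE TRAIL-, 3 of 8 genes were at least 2-fold higher in monocyte-like than in microglia-like barcodes, where 16.7% of all genes compared were higher and 21.6% lower by as much. Gbp2 stood at 2019 CPM (1914 to 2129) in monocyte-like barcodes against 274 CPM in microglia-like, a ratio of 7.38 (6.19 to 8.85). Igtp stood at 364 CPM against 88.6 CPM in microglia-like, a ratio of 4.11 (2.98 to 5.78), and Gbp3 at 311 CPM against 106 CPM, a ratio of 2.93 (2.16 to 4.02). Iigp1 did not follow them, with 230 CPM in monocyte-like and 279 CPM in microglia-like barcodes, a ratio of 0.824 (0.653 to 1.04), and Gbp7 had a ratio of 0.848 (0.670 to 1.07). Within EAE TRAIL+ Gbp2 was the 1 gene past 2-fold, with 571 CPM in monocyte-like and 169 CPM in microglia-like barcodes, a ratio of 3.39 (2.90 to 3.95), where 13% of all genes compared were higher and 18.1% lower by as much. These counts moved with the processing. With the interferon and MHC genes kept for clustering they were 8 of 8 in EAE TRAIL- and 5 of 8 in EAE TRAIL+. Median-of-ratios scaling gave 5 of 8 in EAE TRAIL-, and the mean of each barcode's CPM gave 2 of 8 in EAE TRAIL+. The log2 ratios of Iigp1 and Gbp7 in EAE TRAIL-, -0.28 and -0.24 as given, were 2.68 and 1.23 with those interferon-gene clusters.

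Between the sorted fractions of EAE microglia-like barcodes, none of the 8 genes was at least 2-fold higher in TRAIL+ than in TRAIL-, with 6.28% of all genes compared above that ratio, and 1 was at least 2-fold lower, with 5.49% of all genes below it. That gene was Iigp1, at 118 CPM (106 to 131) in TRAIL+ against 279 CPM (235 to 329) in TRAIL-, a ratio of 0.423 (0.348 to 0.518). Its log2 ratio, -1.24, was -0.73 in the cluster led by Gpr183, Rhoh and Gpr34 alone, and 3 of 8 genes were at least 2-fold lower with the interferon genes kept for clustering. Gbp2 had a ratio of 0.616 (0.510 to 0.749). Gbp2, Gbp3, Gbp4, Gbp5, Gbp7 and Irgm1 had ratios between 0.604 and 0.875 and Igtp of 1.31 (0.956 to 1.82). In naive microglia-like barcodes 5 of the 8 passed the filter on low values, and of these Gbp7 had a ratio of 2.14 (1.34 to 3.61) in TRAIL+ over TRAIL-, where 4.26% of all genes compared were higher and 5.25% lower by as much. It was not at least 2-fold higher with barcodes of at least 1000 UMIs. In EAE monocyte-like barcodes, a comparison added after the data were seen, Gbp2, Gbp3 and Igtp were at least 2-fold lower in TRAIL+ than in TRAIL-, with ratios of 0.283 (0.246 to 0.324), 0.344 (0.245 to 0.474) and 0.444 (0.336 to 0.580). None was at least 2-fold higher, and of all genes compared 11.8% were higher and 10.6% lower by as much. Microglia markers summed to 13573 CPM in those TRAIL+ barcodes against 4644 CPM in TRAIL-, and monocyte markers to 14250 CPM against 21208 CPM; their part in the difference was not tested.

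Over all kept barcodes of a library, 8 of 8 genes were at least 2-fold higher in EAE TRAIL+ than naive TRAIL+ (3.89% of all genes compared, with 4.33% lower by as much) and 7 of 8 in EAE TRAIL- than naive TRAIL- (6.51%, with 7% lower). Gbp4 and Iigp1 passed the filter through EAE alone in TRAIL+. These sums mix cell classes, so more cells of a type and more RNA per cell cannot be told apart in them. Gbp7 was the exception in TRAIL-, at 171 CPM in EAE against 91.7 CPM in naive, a ratio of 1.87 (1.60 to 2.19). Gbp2 stood at 709 CPM in EAE TRAIL- against 53.9 CPM in naive TRAIL-, a ratio of 13.2 (11.1 to 15.7), next to the 262 monocyte-like barcodes in that EAE library and 15 in the naive one.

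Smaller classes, below the minimum of 50 barcodes and 100000 UMIs set for comparisons, are given as levels. Oligodendrocyte-like barcodes numbered 35 in EAE TRAIL- and 79 in naive TRAIL-. The 8 genes summed to 2007 CPM (1705 to 2348) in EAE and 60.3 CPM (26.0 to 119) in naive. Igtp stood out with 60 UMIs in 12 of the 35 EAE barcodes, 772 CPM (589 to 994), the highest Igtp level of any class, against 0 UMIs in 79 naive barcodes, where a count of 0 allows up to 22.6 CPM. Irgm1 followed with 438 CPM (303 to 611) in EAE against 7.54 CPM (0.191 to 42.0) in naive, while Gbp5 had no UMI in either. No more than 14 of the 60 Igtp UMIs came from 1 barcode, whereas 9 of 16 Gbp2 UMIs did. Monocyte markers stood there at 0.485% of their monocyte-like level, and their part in these levels was not tested. At least 1 of the 8 genes was held by 34.3% (19.1 to 52.2) of EAE and 2.53% (0.308 to 8.85) of naive barcodes after thinning.

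Border macrophage-like barcodes numbered 53 in EAE TRAIL+ and 111 in naive TRAIL+ and held 1256 CPM (1034 to 1511) of the 8 genes against 410 CPM (314 to 526) in naive. Gbp7 was their highest in EAE, at 336 CPM (227 to 480) against 185 CPM (123 to 268) in naive. Irgm1 stood at 202 CPM (120 to 319) against 6.61 CPM (0.167 to 36.8). In EAE TRAIL+ this class held 31457 CPM of the 16 microglia markers, next to 37389 CPM for microglia-like barcodes. Its own 10 border macrophage markers reached 4675 CPM there. For naive TRAIL+ these values were 28451, 40522 and 6579 CPM, in that order. With the interferon and MHC genes kept for clustering, 17 EAE TRAIL+ and 58 naive TRAIL+ barcodes carried the name. The part of microglia RNA in these levels was not tested. Choroid plexus-like barcodes (41 in EAE TRAIL- and 91 in naive TRAIL-) were low, with 278 CPM (203 to 372) in EAE against 37.7 CPM (20.1 to 64.5) in naive, and 18 of their 22 EAE Gbp2 UMIs lay in 1 barcode. Fibroblast-like barcodes of naive TRAIL- (30) held Irgm1 at 394 CPM (253 to 587), 24 of their 30 UMIs of the 8 genes. Astrocyte-like barcodes, the labelled target, reached 20 barcodes in naive libraries only, with 99.5 CPM (61.6 to 152) of the 8 genes in naive TRAIL+ and 161 CPM (85.8 to 275) in naive TRAIL-. No EAE value for astrocyte-like barcodes is given, since EAE TRAIL+ held 8 of them and EAE TRAIL- 3.

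The order of the classes differed from gene to gene. For Gbp2, monocyte-like barcodes of EAE TRAIL- and then of EAE TRAIL+ stood above all others. The EAE levels of the Sema3g, endothelial-like and microglia-like TRAIL- barcodes, at 312, 290 and 274 CPM, were among those that followed, and their intervals overlapped. For Iigp1 the highest levels, 291 CPM in pericyte-like, 279 CPM in microglia-like and 277 CPM in endothelial-like barcodes of EAE TRAIL-, did not differ beyond their intervals. Igtp was highest in oligodendrocyte-like barcodes of EAE TRAIL-, above the 364 CPM (320 to 412) of monocyte-like ones. Gbp5 had levels close to each other in 3 classes, at 74.8 CPM in monocyte-like, 73.5 CPM in endothelial-like and 64.9 CPM in microglia-like barcodes of EAE TRAIL-.

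**Figure D4:**
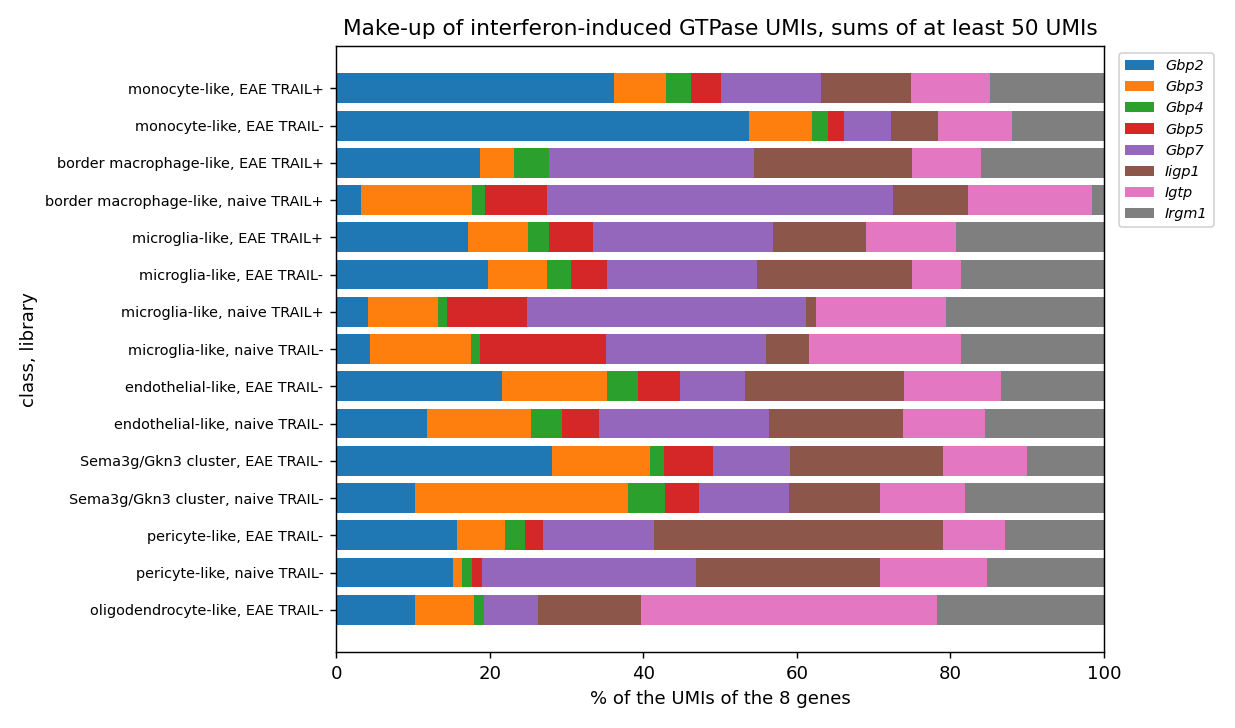
Make-up of the UMIs of the 8 genes, as percent (horizontal axis), in each class and library with at least 50 such UMIs. Gbp2 makes up 53.8% in monocyte-like barcodes of EAE TRAIL-, Iigp1 37.7% in pericyte-like barcodes and Igtp 38.5% in oligodendrocyte-like barcodes of that library.

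The make-up of the GTPase RNA differed between classes of the same library, which share its preparation and sequencing. Each UMI stands for 1 molecule tagged at its poly(A) end, so these shares were not divided by length and 1 gene is compared between classes. In EAE TRAIL-, Gbp2 was 53.8% (51.8 to 55.7) of the 8-gene UMIs in monocyte-like barcodes and 21.6% (18.4 to 25.0) in endothelial-like ones. Iigp1 was 37.7% (32.8 to 42.8) in pericyte-like, 20.6% (17.5 to 24.0) in endothelial-like and 20.2% (17.3 to 23.3) in microglia-like barcodes. Igtp was 38.5% (30.8 to 46.6) in oligodendrocyte-like barcodes. In microglia-like barcodes Gbp7 was 23.5% (21.9 to 25.0) in EAE TRAIL+ and 36.3% (32.7 to 40.0) in naive TRAIL+, although its own level was higher in EAE. In TRAIL- it was 19.6% (16.7 to 22.7) in EAE and 20.9% (13.1 to 30.7) in naive, with overlapping intervals.

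Across 23 class and library sums, the log2(CPM + 10) of each gene was set against the mean of the other 7, as a description. Pearson's r was highest for Gbp4, 0.89, then 0.86 for Gbp2 and 0.85 for Gbp3, and lowest for Gbp5, 0.55. Among 10106 other genes, those most like the mean of the 8 included Isg15 (0.92), H2-D1 (0.89), H2-T22 (0.88), Psmb9 (0.88), Psmb8 (0.86), Rtp4 (0.86), Irf7 (0.86), Usp18 (0.85) and Samhd1 (0.85). Sums share libraries and differ in depth, so these values describe likeness of pattern only.

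Other genes of both families were mostly sparse. In microglia-like barcodes 4 of 4 that passed the filter were at least 2-fold higher in EAE TRAIL+ than naive TRAIL+. These were Irgm2 (46.4 against 15.3 CPM, ratio 3.04, 2.16 to 4.33), Gbp6 (27.8 against 1.66 CPM, ratio 16.7, 6.89 to 52.8), Gm4951 (19.3 against 1.99 CPM, ratio 9.68, 4.19 to 27.4) and Gbp9 (17 against 7.64 CPM, ratio 2.22, 1.34 to 3.81). Gbp6, Gm4951 and Gbp9 passed through EAE alone, which leaves Irgm2 with at least 10 CPM in both groups. Gbp8 had 52 UMIs in EAE TRAIL+ against 1 in naive TRAIL+, while Ifi47 had 51 against 4, both under the filter. Gbp2b, Gbp10, Tgtp1, Tgtp2, Gm12185 and Irgc1 had 11 UMIs or fewer in either, and Gm4841, F830016B08Rik and Irgq had 36 or fewer. In the TRAIL- fraction 5 of 5 were at least 2-fold higher in microglia-like, 2 of 3 in pericyte-like and 1 of 3 in endothelial-like barcodes of EAE. With at least 10 CPM in both groups these counts were 2 of 2, 1 of 2 and 1 of 3. Of all genes compared, 4.04% were as high in TRAIL+ microglia-like barcodes, and 12.9%, 10.1% and 9.2% in these TRAIL- classes. Ifi47, another immunity-related GTPase, stood at 651 CPM in monocyte-like against 43.3 CPM in microglia-like barcodes of EAE TRAIL-, a ratio of 15 (9.81 to 24.3). In endothelial-like barcodes Irgm2 stood at 112 CPM in EAE against 51.4 CPM in naive, a ratio of 2.19 (1.44 to 3.34), and Ifi47 at 71.4 CPM against 97.1 CPM, a ratio of 0.735 (0.476 to 1.11).

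Upstream of the GTPases, receptors and kinases of both interferon pathways showed no 2-fold difference in TRAIL+ microglia-like barcodes (0 of 7 in EAE over naive in either direction). Of all genes compared there, 4.04% were higher and 0.886% lower by as much, so 0 of 7 does not set this list apart. Ifngr1, the ligand-binding chain of the interferon gamma receptor, stood at 568 CPM in EAE TRAIL+ against 645 CPM in naive TRAIL+, and the kinase gene Jak1 at 376 CPM against 515 CPM. In the TRAIL- fraction 2 of 7 were higher by 2-fold or more in microglia-like barcodes, 1 of them with an interval above 1 and with 12.9% of all genes compared as high. In the vascular classes 0 of 7 differed by as much in endothelial-like ones, with 9.2% of all genes compared higher and 9.41% lower. In pericyte-like ones 1 of 7 was lower, with 10.3% of all genes compared lower by as much. Of 13 transcription factors and brakes, 7 were at least 2-fold higher in EAE in TRAIL+ microglia-like barcodes. Of all genes compared there, 4.04% were as high. Irf1 stood at 622 CPM in EAE against 321 CPM in naive, a ratio of 1.94 (1.79 to 2.09), while Irf8 stood at 481 CPM in EAE and 479 CPM in naive and Socs3, a feedback inhibitor, at 1508 CPM in EAE and 1588 CPM in naive. In pericyte-like barcodes 6 of 10 were at least 2-fold higher, with Irf1 at 125 CPM in EAE against 11.2 CPM in naive, a ratio of 11.2 (4.53 to 35.5). In endothelial-like barcodes 3 of 10 were, with Irf1 at a ratio of 2.15 (1.62 to 2.84). Of all genes compared, 10.1% in pericyte-like and 9.2% in endothelial-like barcodes were as high. In TRAIL- microglia-like barcodes 8 of the 13 factors and brakes were higher and 1 lower by 2-fold or more, against 12.9% and 12.7% of all genes compared. With at least 10 CPM in both groups, 3 of 9 were higher in TRAIL+ microglia-like, 4 of 8 in TRAIL- microglia-like, 4 of 8 in pericyte-like and 3 of 10 in endothelial-like barcodes.

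Downstream, type I interferon-stimulated genes were compared in the same way. In EAE over naive, 10 of 12 measured members were at least 2-fold higher in microglia-like TRAIL+ barcodes, 12 of 13 in microglia-like TRAIL-, 12 of 15 in pericyte-like and 3 of 16 in endothelial-like ones. With at least 10 CPM in both groups these counts were 5 of 7, 5 of 6, 5 of 8 and 2 of 15. Of all genes whose mean reached 10 CPM, 4.04%, 12.9%, 10.1% and 9.2% were higher by as much, in that order. The ubiquitin-like modifier gene Isg15 had ratios of 8.36 (6.31 to 11.3) in TRAIL+ microglia-like, 8.17 (4.38 to 16.9) in pericyte-like and 1.75 (1.42 to 2.15) in endothelial-like barcodes. Among interferon gamma-induced effectors, 8 of 10 were at least 2-fold higher in TRAIL+ microglia-like and 10 of 10 in TRAIL- microglia-like barcodes. The MHC class II gene H2-Aa stood at 1131 CPM in EAE TRAIL+ against 26.6 CPM in naive TRAIL+, a ratio of 42.6 (34.1 to 53.8), and Cd74, the class II invariant chain, at 2279 CPM against 98.0 CPM. The list was 8 of 9 in pericyte-like barcodes, where the chemokine gene Cxcl10 stood at 326 CPM in EAE against 4.50 CPM in naive on 2 naive UMIs. It was 3 of 9 in endothelial-like ones, where 1 was at least 2-fold lower, as were 9.41% of all genes compared. With at least 10 CPM in both groups, 6 of 8 effectors were higher in TRAIL+ microglia-like, 8 of 8 in TRAIL- microglia-like, 4 of 5 in pericyte-like and 1 of 7 in endothelial-like barcodes.

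The autophagy conjugation machinery loads these GTPases onto membranes. Of its 10 listed genes, 0 were at least 2-fold higher in EAE in any of the 4 class comparisons. In TRAIL+ microglia-like, TRAIL- microglia-like, endothelial-like and pericyte-like barcodes 0, 1, 2 and 0 were at least 2-fold lower. Of all genes compared, 4.04%, 12.9%, 9.2% and 10.1% were higher and 0.886%, 12.7%, 9.41% and 10.3% lower by as much, in that order. With 10 genes, these counts do not set the list apart from all genes. Gabarap stood at 270 CPM in EAE TRAIL+ against 228 CPM in naive TRAIL+ microglia-like barcodes and Map1lc3b at 200 CPM in EAE and 192 CPM in naive. Inflammasome and pyroptosis genes, some of which act with guanylate-binding proteins, were at least 2-fold higher in 0 of 8 in TRAIL+ microglia-like, 3 of 8 in TRAIL- microglia-like, 4 of 5 in endothelial-like and 2 of 2 in pericyte-like barcodes. In TRAIL- microglia-like and in endothelial-like barcodes 1 of them was lower by as much. Of all genes compared, 4.04% were as high in TRAIL+ microglia-like, 12.9% in TRAIL- microglia-like, 9.20% in endothelial-like and 10.1% in pericyte-like barcodes. An interval above 1 was found for 3 of the 4 endothelial-like calls. With at least 10 CPM in both groups, 3 of 7 were higher in TRAIL- microglia-like, 2 of 2 in endothelial-like and 1 of 1 in pericyte-like barcodes. Il1b stood at 1326 CPM in EAE TRAIL+ against 1614 CPM in naive TRAIL+ microglia-like barcodes, and Nlrp3 at 348 against 513 CPM.

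The ligands themselves were nearly absent. Ifng had 11 UMIs in 3 barcodes of EAE TRAIL- and 1 in EAE TRAIL+, with none in either naive library, and all 12 lay in microglia-like or monocyte-like barcodes. Ifnb1 had 24 UMIs in 11 microglia-like barcodes of EAE TRAIL+. The 16 markers of T and NK cells, the main sources of interferon gamma, summed to at most 207 CPM in any class, in monocyte-like barcodes of EAE TRAIL-, and no cluster carried their name.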

How the data were processed

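Cells were captured by inDrops version 3, per the labels' protocols. The deposited tables hold UMI counts per barcode and gene, not normalized by the authors; the lowest listed total was 100 UMIs. Bowtie and GRCm38 are named in the submitters' processing notes, with versions and counting rules not given in the sources used here. Of 41862 gene columns, 98.8% matched a GENCODE release 21 symbol. Library depth and sample groups are given above.

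Barcodes with at least 500 UMIs and at most 20% mitochondrial UMIs were scaled to 10000, log-transformed and clustered with scanpy 1.11.5 (2000 variable genes without interferon and MHC genes, 30 components, 15 neighbours, Leiden resolution 1; 15 clusters). A cluster was named from fixed marker lists with at least 1 marker among its 10 leading genes or 5 among 100, and no more of another list's than of its own among the 10, a rule set after seeing the clusters; rebuilt names may differ from the study's. Scrublet called 77 doublets, kept in the main values. Counts were summed per class and library and divided by their total (CPM). Classes with at least 50 barcodes and 100000 UMIs were compared over genes whose mean reached 10 CPM. Ratios have exact Clopper-Pearson and levels exact Poisson 95% intervals, which take UMIs as independent. Only the ratio intervals were tested on simulated data, with independent counts and genes of at least 50 UMIs in the denominator. Ratios on fewer UMIs were not covered by that check. Higher and lower mean at least 2-fold, and no p-value was computed.

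All 8 genes are named in each main comparison, with the measured members of the other GTPase list and up to 4 genes with the highest CPM of each further list; 1 gene that this rule names is not reported here. The genes, lists and tests were chosen with earlier results of these data known. Promoter sequences are from RefSeq (GRCm38.p6). Alternatives were other UMI, mitochondrial and fold thresholds, other classes, doublets left out, no low filter, per-barcode means, and TMM (edgeR 4.0.16) and median-of-ratios (DESeq2 1.42.0) scaling of the counts.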

Additional observations from a re-analysis of the deposited data

Results flagged for a closer look

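Gbp7 moved in opposite directions between cell classes. Its log2 ratio of EAE over naive was 1.46 in microglia-like barcodes of TRAIL+, 2.80 in microglia-like barcodes of TRAIL- and 1.17 in pericyte-like barcodes, against -0.79 in endothelial-like barcodes. The difference between classes was itself not tested, with 1 library per group.

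Barcodes under 500 UMIs, used in none of the comparisons, also carried the 8 genes. Their summed level was 705 CPM (597 to 826) in EAE TRAIL+ against 230 CPM (180 to 289) in naive TRAIL+, and 881 CPM (773 to 999) in EAE TRAIL- against 623 CPM (541 to 713) in naive TRAIL-.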

How the results depend on the processing

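Of 800 ratios of single genes under the alternatives, 725 stayed within the interval of the reported value and 75 lay outside it. The alternatives differed in this. With clusters made with the interferon genes, 33 moved outside the interval, 1 more was reversed and 54 stayed within it. Classes set by largest marker share moved 13 outside and kept 75 within. TMM scaling kept all 88 within. Of the 800, 34 changed sign, 33 of them ratios under 2-fold as reported. The other was Gbp5 in microglia-like barcodes of EAE TRAIL- against naive TRAIL-, at -0.012 (log2), with clusters made with the interferon genes. Among those clusters, the one led by C4b and Hcar2 stayed unnamed and thus outside the class. Microglia markers made up 3.33% of its UMIs. With those clusters the count of genes at least 2-fold higher was 2 in TRAIL+ and 5 in TRAIL- microglia-like barcodes (8 in both as reported). In endothelial-like barcodes the count was 3 with barcodes of at least 1000 UMIs and 6 at a 1.5-fold threshold (1 as reported). In pericyte-like barcodes it was 5 with the mean of each barcode's CPM (8 as reported). For naive TRAIL+ against naive TRAIL- microglia-like barcodes it was 0 with at least 1000 UMIs and 2 in the cluster led by Gpr183, Rhoh and Gpr34 alone, an alternative chosen after seeing the data (1 as reported). For monocyte-like against microglia-like barcodes of EAE TRAIL+ it was 5 with clusters made with the interferon genes, 3 at a 1.5-fold threshold and 2 with the mean of each barcode's CPM (1 as reported), and in EAE TRAIL- it was 8 with those clusters, 5 at 1.5-fold and 5 with median-of-ratios scaling (3 as reported). The cause was not tested for these. The counts of the other comparisons and alternatives run stayed within 1.5 times. TMM scaling moved all log2 ratios by -0.16 in TRAIL+ microglia-like, -0.12 in endothelial-like and 0.24 in naive TRAIL+ against naive TRAIL- barcodes, and median-of-ratios scaling by up to 0.27 (monocyte-like against microglia-like, EAE TRAIL-). No paired analysis was possible because each group has 1 library. Intervals cover counting error only; where few barcodes hold a gene's UMIs they are too narrow. Depth limits Gbp4 and Gbp5, and with 8 and 3 astrocyte-like barcodes in EAE the labelled cells could not be described.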
